A study of Mus musculus with 40 samples.

Results

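Cholesterol synthesis, uptake and transport were followed through 30 genes, chosen by name for their place in the pathway: the enzymes from acetoacetyl-CoA to cholesterol, the sensors that set their level, the proteins that carry sterols and the enzymes that esterify them. Of these, 27 had a probe set in the annotation used, out of 18193 genes named on the array, and Acat2, Soat1 and Soat2 were not analysed here. Each gene was represented by the probe set with the highest mean signal over all arrays, so that 27 of the 63 probe sets of these genes carry the main results. The tissues came from male B6C3F1/Crl mice, bred from C57BL/6 fathers and C3H/He mothers, that were 29 to 32 days old on arrival. After 5 days of acclimatisation, 10 mice drank water with 0.05% (w/v) phenobarbital (PB), a sedative known to raise the liver's drug-metabolizing enzymes, freely over 28 days, while 10 controls drank water without it. Every group is made of individual animals, not pools. Liver and kidney of every animal were measured on 1 array each, giving 40 arrays in 4 groups of 10, and the values are MAS5 signals, a linear intensity with no fixed unit. Feeding state and hour of death are not given in the sources used here.

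Cholesterol is built from acetyl-CoA by way of mevalonate, isoprenoid units, squalene and lanosterol, and the last steps reshape the sterol ring. The genes of this chain are switched on together by SREBP-2, the product of Srebf2, which is escorted out of the endoplasmic reticulum by Scap when sterols are scarce and held back there by Insig1 and Insig2 when they are plentiful. Liver is a main site of cholesterol synthesis and takes up and exports lipoprotein cholesterol through Scarb1 and Abca1.

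The tissue labels were checked first. The summed signal of 5 hepatocyte markers was 70010.0 to 102778 in the livers and 6812 to 13410.0 in the kidneys, and that of 5 measured kidney markers was 23467 to 31126 in the kidneys and 74.5 to 359 in the livers. Markers of the adrenal gland, a sterol-rich neighbour of the kidney, summed over 11 genes to between 163 and 420.3 in all groups, and at most 1 of the 11 reached a group mean of 50. Array medians were at most 37.2. A single library stood apart in the results below: the liver of control animal 2 had the highest control value for 12 of the 18 synthesis genes, and the liver differences that it moved most are also given without it. This animal was singled out after its values had been seen. Leaving out the highest control of a gene raises its log2 difference by construction. These are whole tissues, in which fewer cells of a type and less RNA per cell cannot be told apart.

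PB treatment changed 8 of the 27 genes in the liver, 5 of them upward and 3 downward. Insig1, the sterol sensor that retains SREBP-2, rose most, followed by the synthesis enzymes Msmo1, Mvk, Hsd17b7 and Fdft1, while the lipoprotein receptor Scarb1, the cholesterol exporter Abca1 and the sterol isomerase Ebp fell. The changes were moderate, from 1.28-fold to 1.68-fold among the increases. By the same limma test, with an adjusted p under 0.05, 12.3% of the 18981 probe sets tested in liver were called (5.88% higher and 6.43% lower), that is, 1116 higher of 2336 called, against 846 of 2308 with arrays scaled to the median. The median log2 difference of the 27 genes was 0.12, against -0.01 over all probe sets tested, and 19 of the 27 differences were above 0. By role, 1 of 5 mevalonate genes, 1 of 3 isoprenoid genes, 2 of 10 sterol ring genes and 1 of 4 control genes rose, while 1 sterol ring gene and 2 of 5 transport genes fell.

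Insig1 signal was 904 to 2119.6 with a median of 1281 in control livers and 1741 to 2968 with a median of 2263 in the livers of PB-treated mice. All 10 treated livers lay above the control median and 6 lay above the highest control, and the groups overlapped between 1741 and 2119.6. The log2 difference was 0.75 ± 0.15 (SE, n = 10 per group), or 1.68-fold, with a limma adjusted p of 0.00152.

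Msmo1, the oxidase that starts removal of the C4 methyl groups of the sterol ring, ranged from 1474 to 5429 in control livers (median 2190.2) and from 2391 to 4570.2 in treated livers (median 3546). Control animal 2 held the top value, and 9 of 10 treated livers exceeded the next control at 2876. The log2 difference of 0.65 ± 0.17 (SE) had a limma adjusted p of 0.0118, and without control liver 2 it was 0.79 with an adjusted p of 7.36e-05. When each of the 20 arrays was left out in turn, the difference ran from 0.59 to 0.79, with limma adjusted p up to 0.0252.

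Mvk, mevalonate kinase, was measured at 136 to 234 in control livers (median 184) and at 219 to 329 in treated livers (median 260.3). Separation was nearly complete, with 9 of 10 treated livers above every control. The increase was 0.54 ± 0.08 (SE) on the log2 scale, limma adjusted p = 0.000119, and the second Mvk probe set gave 0.75 with an adjusted p of 0.0274. With all 40 arrays in 1 fit, kidneys included, the adjusted p was 0.15 and the call was lost.

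Hsd17b7, a 3-ketosteroid reductase of the same demethylation complex as Msmo1, showed 311 to 579 in control livers (median 443) and 474 to 658.5 in treated livers (median 582). The treated group was high, with 6 of its 10 values above all controls. The log2 difference was 0.45 ± 0.10 (SE), limma adjusted p = 0.00493, and the other 2 probe sets of the gene that were tested also rose (0.36 and 0.42). Fdft1, squalene synthase, had 1247 to 2570.4 in control livers (median 1409) and 1602 to 2463 in treated livers (median 2041). None of the treated values exceeded control animal 2, although all 10 lay above the control median. Its difference of 0.36 ± 0.12 (SE) barely passed, with a limma adjusted p of 0.0436. That call was lost when any of 14 of the 20 arrays was left out (adjusted p up to 0.0819) and in 5 of 12 other settings (up to 0.0763), and leaving out control liver 2 gave an adjusted p of 0.00482. The other tested probe set of Fdft1 gave 0.37 and did not pass (limma adjusted p = 0.0834).

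Among the genes that fell, Abca1, which loads cholesterol onto apolipoprotein A-I, was 3663 to 5503 in control livers (median 4525) and 3189 to 3769 in treated livers (median 3565). The treated values were low and close together, 7 of them below every control. On the log2 scale they differed by -0.36 ± 0.06 (SE), limma adjusted p = 0.000444. Scarb1, the receptor that takes cholesterol from high-density lipoprotein, ranged from 1179 to 1563 in control livers (median 1348) and from 774 to 1199 in treated livers (median 1107). Again 7 of 10 treated livers were below the lowest control. The difference was -0.34 ± 0.07 (SE) on the log2 scale with a limma adjusted p of 0.00294, and all 3 Scarb1 probe sets were called lower. Ebp, which moves the double bond of the sterol ring, was 4005 to 4928 in control livers (median 4562) and 3533 to 4367 in treated livers (median 3852). Although 6 treated values lay below all controls, the shift was small at -0.21 ± 0.05 (SE), limma adjusted p = 0.00599.

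None of the 27 genes, by its brightest probe set, separated the 10 control from the 10 treated livers without overlap. Of all probe sets tested in liver, 1.36% did. Another Scarb1 probe set also did, with 987 to 1383.5 in control livers and 663 to 919 in treated livers. At the thresholds of the study's methods, a ratio of mean signals of at least 1.5 and a t-test p of at most 0.001, 1 of the 27 genes was called in liver, Insig1, beside 2.11% of all probe sets. This t-test was run here on log2 signal, and it called 401 probe sets, more than the study itself reported.

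**Figure D1:**
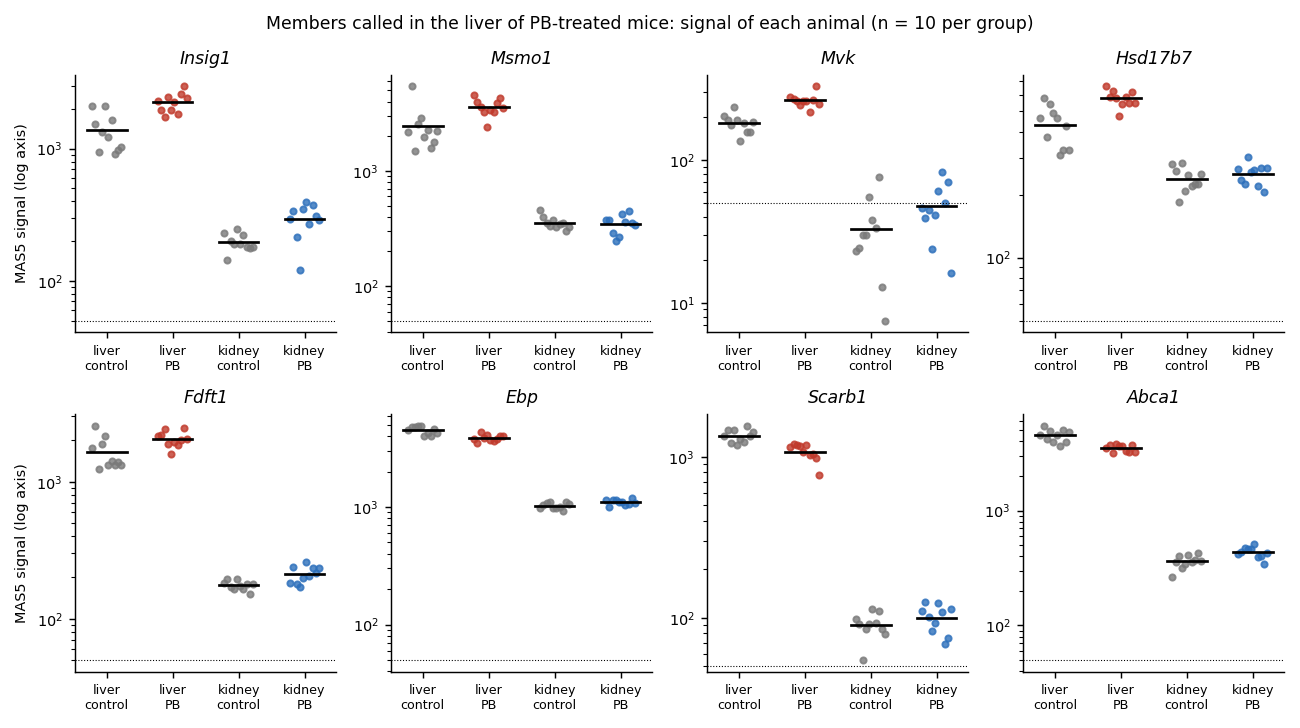
MAS5 signal of each animal (log axis, a point per animal) in the 4 groups for the 8 genes called in liver, with a bar at the mean of 10 animals and a dotted line at a signal of 50. Insig1, Msmo1, Mvk, Hsd17b7 and Fdft1 lie higher in treated than in control livers and Ebp, Scarb1 and Abca1 lower, with overlap in every panel, and control animal 2 is the high point at 5429 in the Msmo1 panel.

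The remaining 19 genes did not pass in liver, and several of their intervals were wide. Hmgcs1, which makes HMG-CoA, was 2288 to 9765 in control livers (median 3233) and 3564 to 5779 in treated livers (median 4796). All 10 treated livers lay above the control median, but 2 control livers (9765 and 6087) lay above all of them. The log2 difference was 0.26 with a 95% interval of -0.13 to 0.65 (limma adjusted p = 0.402), and without control liver 2 it was 0.41 ± 0.14 (SE, adjusted p = 0.0668). Sqle, squalene epoxidase, was 536 to 1690.2 in control livers (median 778) and 615 to 1079.8 in treated livers (median 867). Here too the treated range lay inside the control range. The difference of 0.12 had an interval of -0.19 to 0.44, and it was 0.24 without control liver 2 (adjusted p = 0.178). Idi1, which interconverts the isoprenoid units, Lss, which closes the ring, Cyp51, which demethylates lanosterol, and Dhcr7, a last reductase, had log2 differences of 0.10, 0.04, 0.05 and -0.05, and the widest of their 95% intervals, that of Idi1, ran from -0.24 to 0.44. Without control liver 2 these differences were 0.25, 0.13, 0.15 and 0.07, so that of Dhcr7 turned sign, and none of the 4 passed. A second Lss probe set had 0.39 with all liver arrays and did not pass either (limma adjusted p = 0.0834). Mvd, mevalonate diphosphate decarboxylase, had 0.37 (interval 0.05 to 0.69, adjusted p = 0.122) and Scap, the SREBP escort, had -0.22 (interval -0.38 to -0.05, adjusted p = 0.0734), and both passed by limma when control liver 2 was left out, with adjusted p of 0.0463 for Mvd and 0.0468 for Scap. Without that animal 10 genes were called, 6 higher and 4 lower, beside 12.4% of all probe sets. The other genes, Aacs, Pmvk, Fdps, Tm7sf2, Nsdhl, Insig2, Stard4, Npc1 and Npc2, had differences from -0.21 for Pmvk to 0.33 for Aacs, none past the test. That of Pmvk was -0.09 without control liver 2, and that of Insig2 went from -0.06 to -0.12. Srebf2 had a log2 difference of 0.18 with an interval of -0.06 to 0.43, and its second probe set pointed the other way at -0.17.

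Sc5d, the last desaturase before the final reduction, depended on the probe set. Its brightest probe set had 3909 to 6138 in control livers (median 4762) and 4295 to 6414 in treated livers (median 5527), a log2 difference of 0.18 that did not pass (limma adjusted p = 0.163). The other probe sets of Sc5d were called higher, at 0.70 with an adjusted p of 0.00482 and at 0.72 with an adjusted p of 0.000774. One of these ran from 430.5 to 1696 in control livers and from 1165 to 1924 in treated livers (medians 992 and 1571). Control liver 2 was the lowest control in both, here at 430.5 where the next control had 772. The differences of these probe sets without that animal are not given here. Of the 16 genes with more than 1 probe set tested in liver, 12 had the same sign in all of them.

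The promoters of the 4 genes that rose most in liver, and that of Hmgcs1, are shown because SREBP-2 acts at sterol regulatory elements together with NF-Y, which binds CCAAT boxes. Each run is the 250 bases before the start site in RefSeq (build GRCm38.p6), written 5′ to 3′ along the gene, with CCAAT on either strand in capitals and, in Hmgcs1, the match to the element TCACNCCAC in capitals too. Hmgcs1 was chosen as the only gene with such a match among the 21 measured genes whose promoters could be searched. The choice of these 5 was made after the values had been seen.
Insig1, chr5:28071162-28071411, plus strand: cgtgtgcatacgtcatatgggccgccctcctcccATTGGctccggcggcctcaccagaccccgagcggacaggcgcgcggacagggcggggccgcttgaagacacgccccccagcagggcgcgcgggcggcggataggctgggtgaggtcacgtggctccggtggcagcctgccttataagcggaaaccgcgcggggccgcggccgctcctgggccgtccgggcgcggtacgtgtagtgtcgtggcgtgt
Msmo1, chr8:64733579-64733828, minus strand: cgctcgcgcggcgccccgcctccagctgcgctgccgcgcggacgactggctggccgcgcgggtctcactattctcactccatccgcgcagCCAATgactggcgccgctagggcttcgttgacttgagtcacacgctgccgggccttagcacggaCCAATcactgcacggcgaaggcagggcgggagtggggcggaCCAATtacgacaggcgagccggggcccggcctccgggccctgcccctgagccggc
Mvk, chr5:114444019-114444268, plus strand: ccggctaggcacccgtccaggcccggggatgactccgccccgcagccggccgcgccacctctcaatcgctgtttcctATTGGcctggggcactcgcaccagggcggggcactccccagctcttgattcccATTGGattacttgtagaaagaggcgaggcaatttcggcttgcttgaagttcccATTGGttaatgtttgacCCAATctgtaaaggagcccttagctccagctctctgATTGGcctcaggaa
Hsd17b7, chr1:169969206-169969455, minus strand: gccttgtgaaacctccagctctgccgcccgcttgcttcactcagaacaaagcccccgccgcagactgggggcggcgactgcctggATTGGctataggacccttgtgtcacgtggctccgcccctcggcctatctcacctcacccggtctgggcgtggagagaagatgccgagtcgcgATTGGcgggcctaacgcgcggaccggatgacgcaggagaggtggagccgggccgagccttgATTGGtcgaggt
Hmgcs1, chr13:119690101-119690350, plus strand: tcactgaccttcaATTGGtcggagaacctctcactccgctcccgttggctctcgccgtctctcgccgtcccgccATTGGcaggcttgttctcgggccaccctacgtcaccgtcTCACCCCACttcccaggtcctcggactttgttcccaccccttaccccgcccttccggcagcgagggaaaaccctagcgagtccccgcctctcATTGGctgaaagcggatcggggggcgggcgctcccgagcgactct
Promoters of 21 of the 27 measured genes were in the table. CCAAT on either strand was present in 18 of the 21 genes (85.7%), with 11 holding at least 2 copies, against 41.1% of all 27025 genes in windows of the same length of 300 bases, of which 13.3% held at least 2. GGGCGG on either strand, the core of the GC box, was present in 19 genes (90.5%), against 38.2% of all genes. TCACNCCAC on either strand was found in 1 gene (4.76%), at -137 of Hmgcs1, against 1.44% of all genes. Mvk held 5 CCAAT boxes in the stretch shown, Msmo1 and Hsd17b7 held 3 each and Insig1 held 1. Hmgcs1, which was not called in liver, held 3. In the same 250 bases of Ebp and Abca1, which fell in liver, there were 2 and 0. The CCAAT boxes of Msmo1 began at -160, -96 and -55. Matches to different motifs did not overlap in the promoters of these genes, and a match is a description of the sequence only.

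In kidney, 3 of 26 genes were called on PB and the shifts were small: Fdft1 and Cyp51 rose and Idi1 fell. By the limma test 3.26% of the 19229 probe sets tested in kidney were called, 1.79% higher and 1.47% lower, that is, 345 higher of 627 called, against 348 of 480 with median scaling. The median log2 difference of the 26 genes was 0.07, against 0.004 over all probe sets. Mvk was not tested because its mean was under 50 in both kidney groups.

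Fdft1 was 151 to 195 in control kidneys (median 175) and 172 to 259 in the kidneys of PB-treated mice (median 209.8). Of the treated values, 7 lay above all controls. The log2 difference was 0.27 ± 0.07 (SE), limma adjusted p = 0.0441. Cyp51, lanosterol demethylase, was 1606 to 2035 in control kidneys (median 1716) and 1633 to 2225 in treated kidneys (median 2026), with 5 treated values above all controls. Its difference was 0.19 ± 0.05 (SE), limma adjusted p = 0.046, and a second Cyp51 probe set gave 0.29 with an adjusted p of 0.0341. Idi1, isopentenyl-diphosphate isomerase, was 1678 to 2209.5 in control kidneys (median 1858) and 1515 to 1787 in treated kidneys (median 1645). All 10 treated kidneys lay below the control median, with a log2 difference of -0.19 ± 0.05 (SE), limma adjusted p = 0.0253. The second Idi1 probe set did not pass by limma, at -0.10 with an adjusted p of 0.686. Neither did the other tested probe set of Fdft1 (0.23, adjusted p = 0.242) or the remaining one of Cyp51 (0.18, adjusted p = 0.326).

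Fdft1 and Cyp51 sat close to the threshold. Leaving out single arrays gave 1 to 3 calls, with Cyp51 lost in 16 and Fdft1 in 14 of 20 such fits and Idi1 in none, although Idi1 was lost with arrays scaled to the median or without a filter, and with all 40 arrays in 1 fit none of the 3 passed. Insig1 had the largest difference of the genes in kidney without passing: 143 to 246 in control kidneys (median 191) against 121 to 395 in treated kidneys (median 302). There, 8 treated kidneys were above all controls and 1, animal 14, was below all of them. The log2 difference was 0.54 ± 0.16 (SE) with a limma adjusted p of 0.0538. Abca1 had 264 to 427 in control kidneys and 346 to 515 in treated kidneys (medians 363 and 432), with 6 treated values above all controls. Its difference was 0.27 ± 0.08 (SE), limma adjusted p = 0.0547. One other probe set of Stard4, a cytosolic sterol carrier, was called higher in kidney at 0.38 (adjusted p = 0.00851), whereas the brightest one gave 0.16 (adjusted p = 0.243). None of the 26 genes separated the kidney groups without overlap, beside 0.161% of all probe sets, and none passed the study's thresholds, beside 0.374%. That last share, 72 probe sets by the t-test on log2 signal, is also above the study's own count.

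**Figure D2:**
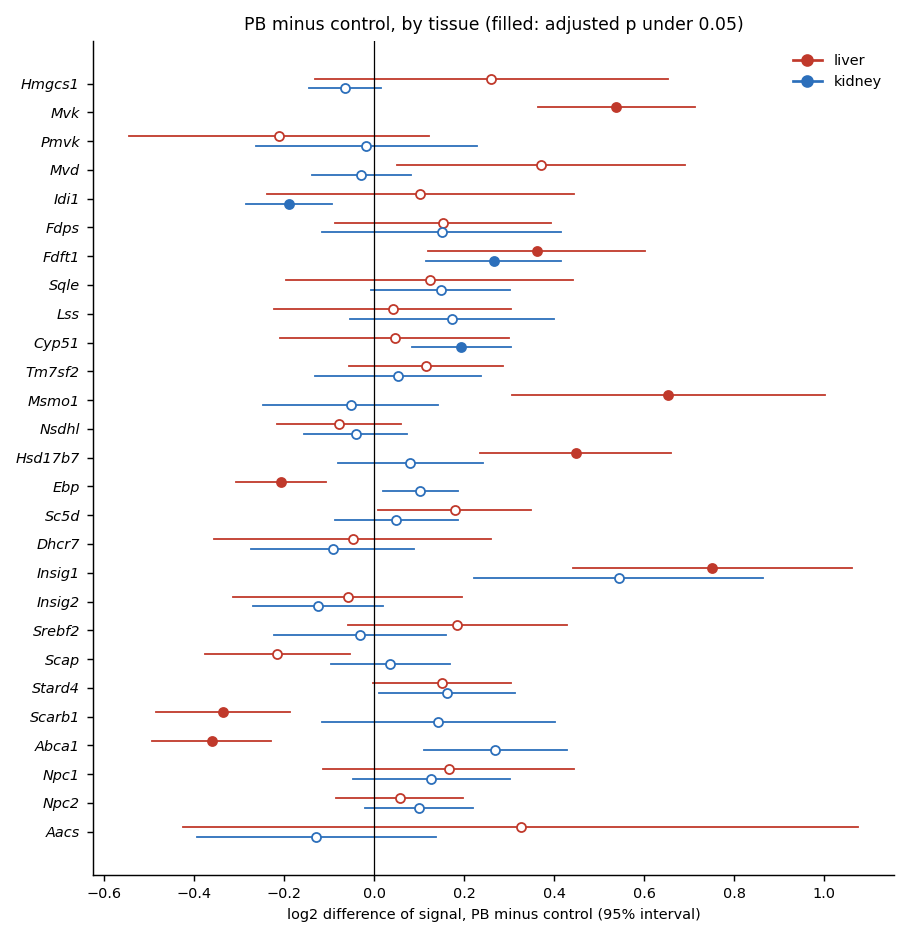
Log2 difference of signal, PB minus control, with its 95% interval for each gene in liver and in kidney, filled where the limma adjusted p was under 0.05. Insig1 lies to the right of 0 in both tissues, whereas Abca1 lies at -0.36 in liver and at 0.27 in kidney.

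Other gene lists were counted in the same arrays, against 12.3% of all probe sets called in liver and 3.26% in kidney. Of 9 clock genes tested in liver, 4 rose and 2 fell, led by Dbp at 2.32 and Per2 at 0.94 on the log2 scale, and in kidney 5 of 11 rose and 2 fell, led by Dbp at 1.35 and Npas2 at -0.91. Among 7 genes that follow feeding, 3 fell in liver, Igfbp1 most with a difference of -2.47 (992 to 7724 in controls, 92.3 to 1693 in treated livers), followed by Angptl4 at -1.13, and in kidney Fasn rose by 1.02. Of 4 stellate cell and fibroblast markers tested in liver, 3 fell, led by Des at -1.14 and Lrat at -0.90, and the summed signal of all 5 on the list was 2022 to 2613 in control livers and 1664 to 2339.9 in treated livers. Of 7 macrophage markers tested in liver, 1 fell (C1qa, -0.34), and of 5 hepatocyte markers 1 fell (Fgb, -0.29). In kidney both fat markers tested, Adipoq and Ucp1, rose, and the sum of 3 fat markers was 5.9 to 164 in controls and 72.3 to 1567 in treated animals. Of 3 pancreas markers none was called in kidney, where their sum reached 2872 in control animal 1. The part of these differences in the values of the cholesterol genes was not tested.

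The PB effect differed between liver and kidney for 4 of 27 genes, while 6.21% of 21866 probe sets were called in this test (3.13% higher in liver and 3.08% lower, that is, 684 higher of 1357, against 436 of 1353 with median scaling). Abca1 differed with the smallest adjusted p: its difference was -0.36 in liver and 0.27 in kidney, and the effect in liver minus that in kidney was -0.63 ± 0.10 (SE) on the log2 scale, limma adjusted p = 4.75e-05. A second Abca1 probe set gave -0.56 with an adjusted p of 0.0212, and the other gave 0.11 with an adjusted p of 0.922. Kidney means of the second were 40.82 in control and 46.9 in treated mice, under the filter of 50. Those of the other were 16.06 and 13.65, and its liver difference was -0.39. Scarb1 had -0.48 ± 0.15 (SE), adjusted p = 0.0428, from 54.8 to 114 in control kidneys and 68.7 to 125 in treated kidneys. This call was lost when any of 20 of the 40 arrays was left out, with adjusted p up to 0.0685. Ebp had -0.31 ± 0.06 (SE), adjusted p = 0.000708, with 926 to 1109.9 in control kidneys and 1002 to 1183 in treated kidneys. Msmo1 had 0.71 ± 0.20 (SE), adjusted p = 0.0285. Its kidney values of 300.3 to 456 in controls and 247 to 444 in treated mice overlapped almost entirely. Without control liver 2, 5 genes were called beside 6.4% of all probe sets: Msmo1 (0.85), Ebp (-0.30), Abca1 (-0.60), Idi1 (0.44, adjusted p = 0.0132) and Hsd17b7 (0.42, adjusted p = 0.0374), while Scarb1 no longer passed. For Insig1 the difference between tissues was 0.21 with a 95% interval of -0.25 to 0.67, and for Fdft1 0.10 with an interval of -0.19 to 0.38, and neither passed the test.

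Levels in liver and kidney were far apart for most of the genes in both treatment groups. In control mice 26 of 27 genes differed between the tissues, 21 higher in liver and 5 higher in kidney, and the tissues did not overlap for 20. Over all probe sets 78.2% of 21188 were called in control mice (35% higher in liver, 43.2% lower) and 43.5% did not overlap. In PB-treated mice 25 genes differed, 21 higher in liver and 4 higher in kidney, and 23 did not overlap, with 80.2% of 21377 probe sets called (35.1% higher, 45.1% lower) and 46% without overlap. The median log2 difference of the 27 genes was 2.22 in control mice and 2.05 in treated mice, against -0.09 and -0.11 over all probe sets. No test of these shares against those of all probe sets was run.

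Fdps, farnesyl diphosphate synthase, differed most: 2743 to 5388 in control livers and 121 to 203 in control kidneys, a log2 difference of 4.52 ± 0.12 (SE). The same difference of 4.52 was found in treated mice. Sc5d followed with 4.16 in control and 4.29 in treated mice, and its kidney values were 237.5 to 322 in both treatment groups together. Its other probe sets gave smaller differences, 3.01 and 1.35 in control mice and 3.64 and 2.00 in treated mice. Among the transport genes Scarb1 had 3.92 in control mice and 3.45 in treated mice, and Abca1 3.64 and 3.01. Insig2, the second INSIG sensor, was 3061 to 6437 in control livers and 326 to 419.7 in control kidneys, a difference of 3.65. Insig1 differed by 2.77 in control and 2.97 in treated mice. For Mvk, at 7.5 to 75.6 in control kidneys and 16.2 to 82.8 in treated kidneys, only a bound can be given: mean signal was at least 3.64-fold higher in control liver and at least 5.25-fold higher in treated liver than a kidney signal of 50. The second Mvk probe set did not bear this out in control mice, with a difference of 0.43 (limma adjusted p = 0.137), and gave 1.16 in treated mice (adjusted p = 0.000116). Squalene synthase Fdft1, the ring enzymes Tm7sf2, Msmo1, Dhcr7, Lss and Ebp, the kinase Pmvk and the lysosomal exporter Npc1 were higher in liver by 2.13 to 3.59 in control mice. Smaller excesses in liver, from 0.60 to 1.42, were found for Idi1, Sqle, Hsd17b7, Nsdhl, Scap and Stard4.

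A few genes of the same chain went the other way. Aacs, which makes acetoacetyl-CoA from ketone-derived acetoacetate in the cytosol, was 482.5 to 1014 in control kidneys and 48.0 to 400.5 in control livers. The tissues did not overlap, and the log2 difference, liver minus kidney, was -2.43 ± 0.30 (SE), limma adjusted p = 1.5e-07. A second Aacs probe set gave -1.14. Cyp51 had 1606 to 2035 in control kidneys and 712 to 1673 in control livers, a difference of -1.005. Its 3 probe sets disagreed, the others giving -0.49 and 0.42, and each passed the test in control mice. Mvd was lower in liver by 0.65 in control mice, with a log2 difference of -0.65, and by less in treated mice, with -0.25 (adjusted p = 0.037). With the animal as a block, the adjusted p of Mvd in treated mice was 0.0503, so that call was lost, as it was without any of 6 of the 20 arrays. Npc2, the lysosomal sterol-binding protein, had -0.39 and -0.43. Hmgcs1 was measured at 5007 to 5828 in control kidneys and 2288 to 9765 in control livers, with a difference of -0.48 in control mice (adjusted p = 0.0216) and of -0.15 in treated mice (adjusted p = 0.0522). In treated mice it passed in 3 of 12 other settings, with -0.65 under quantile normalization, and 3 of its 5 probe sets were called lower in liver, at -0.28, -0.22 and -1.14. The probe set at -1.14 was dim, with a mean of 41.32 in treated livers, under the filter of 50, and 72.01 in treated kidneys. Srebf2 did not pass in either group, with 0.01 in control mice (interval -0.22 to 0.24) and 0.22 in treated mice (adjusted p = 0.0501), and with the animal as a block it passed in treated mice with an adjusted p of 0.0244. Its second probe set pointed the other way in treated mice, at -0.51 (adjusted p = 0.00277).

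**Figure D3:**
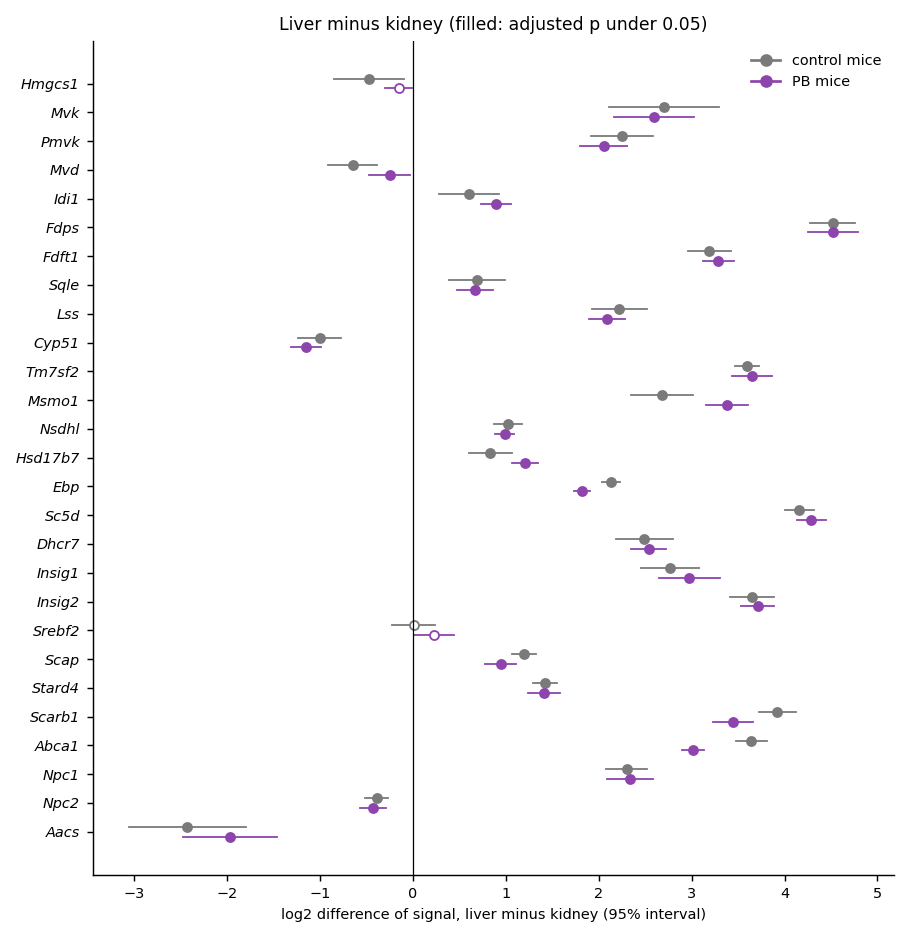
Log2 difference of signal, liver minus kidney, with its 95% interval for each gene in control and in PB-treated mice, filled where the limma adjusted p was under 0.05. Most genes lie to the right, up to 4.52 for Fdps, while Aacs, Cyp51, Mvd, Hmgcs1 and Npc2 lie to the left in both groups.

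Single control livers differed widely in the synthesis genes, more than treated livers, a description for which no test was run. The standard deviation of log2 signal was larger in control than in treated livers for 17 of 18 synthesis genes, all except Tm7sf2, with medians of 0.39 and 0.23. Over all 18981 probe sets it was larger in control livers for 59.8%, with medians of 0.25 and 0.22. In kidney it was larger in controls for 6 of 17 synthesis genes, with medians of 0.16 and 0.20. Hmgcs1 spanned 4.27-fold among control livers and 1.62-fold among treated livers, Msmo1 3.68-fold and 1.91-fold, and Idi1 3.61-fold and 1.83-fold. Control animal 2 stood at the top of these ranges, with an Idi1 signal of 7260 where the next control had 3213. Without that animal 15 of 18 synthesis genes still had the larger spread in controls, and the medians were 0.29 and 0.23. Over all probe sets the share with the larger spread in controls then fell to 52.4%, with medians of 0.23 and 0.22. The wider range ran both ways, since the mean log2 deviation of 17 synthesis genes (all but Mvk) from the control mean was 0.64 in control liver 2 and -0.37 in control liver 8. Treated livers all lay between 0.03 and 0.41. In the kidney of control animal 2 the same mean was 0.03, inside the control range of -0.11 to 0.11.

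**Figure D4:**
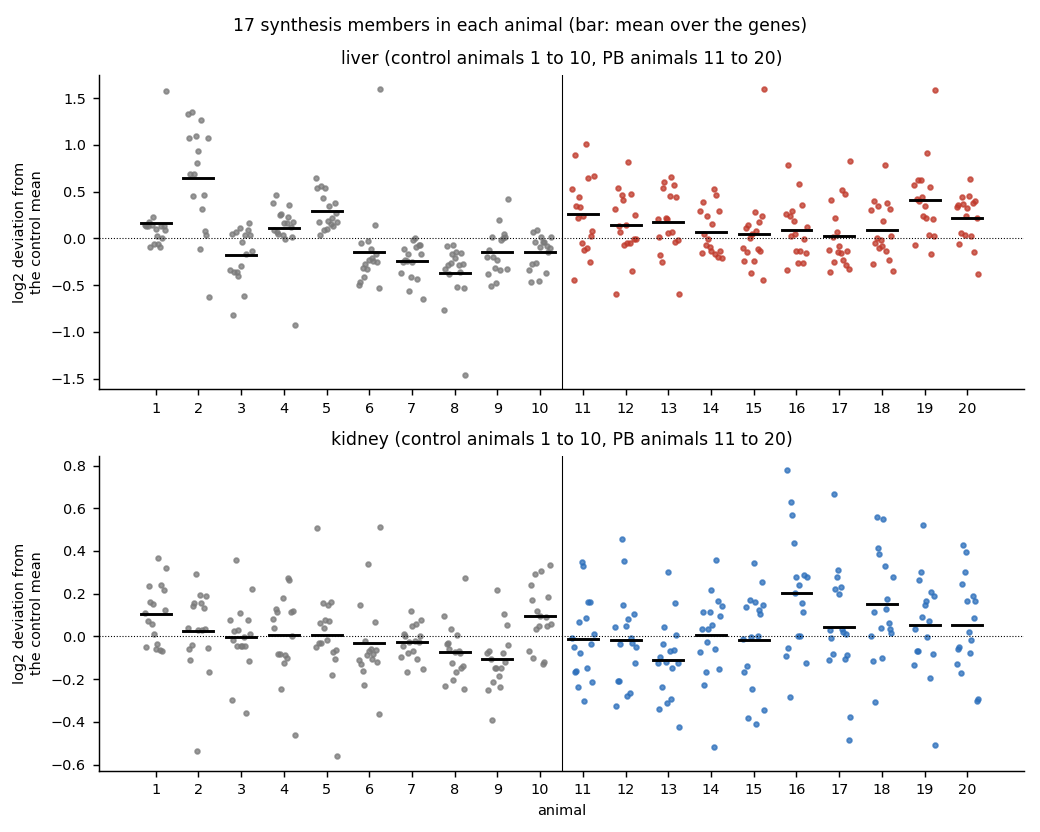
Log2 deviation of 17 synthesis genes from the mean of the control group of the tissue, for each animal of liver (upper) and kidney (lower), a point per gene and a bar at the mean over genes, with different vertical scales. Control liver 2 has the highest bar at 0.64 and control liver 8 the lowest at -0.37, while the treated livers run from 0.03 to 0.41.

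To see whether the genes of the chain varied together between animals, Sqle was correlated with the other synthesis genes, Insig1 and Stard4 over the 10 animals of each group, 74 relations in all. In control livers the median Pearson r over 19 genes was 0.68 and 6 relations passed after Benjamini-Hochberg adjustment: Cyp51, Idi1, Hmgcs1, Msmo1, Fdft1 and Dhcr7. Cyp51 was closest, with r = 0.96 (permutation p = 4.0e-05, adjusted p = 0.00296) and Spearman's rho = 0.95 (permutation p = 0.00012, adjusted p = 0.00888), and Idi1 had r = 0.94 (permutation p = 0.00048, adjusted p = 0.0178) and rho = 0.83 (permutation p = 0.00522, adjusted p = 0.0933). Leaving out the 2 animals farthest from the median of Sqle left r at 0.94 for Cyp51 and 0.95 for Idi1. For the other 4 genes r fell to between 0.63 and 0.78. By rho only Cyp51 passed in control livers. Without the 2 farthest animals the median r was 0.63 in control livers, 0.30 in treated livers, 0.46 in control kidneys and 0.23 in treated kidneys. In treated livers the median r was 0.39 and 3 relations passed by r and none by rho, namely Fdft1 (r = 0.84), Msmo1 (0.82) and Hsd17b7 (0.82), which fell to 0.58, 0.53 and 0.59 without the 2 farthest animals. In kidneys the median r was 0.14 in controls, where no relation passed by r and 1 by rho (Tm7sf2, rho = 0.89), and 0.40 in treated mice, where Fdps (r = 0.85) and Fdft1 (r = 0.83) passed by r. With the 8 remaining animals no relation in any group passed an exact permutation test after adjustment, the smallest adjusted p being 0.139. Insig1 was not among the genes that passed in control livers, with r = 0.36. Whether r differed between groups was not tested.

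**Figure D5:**
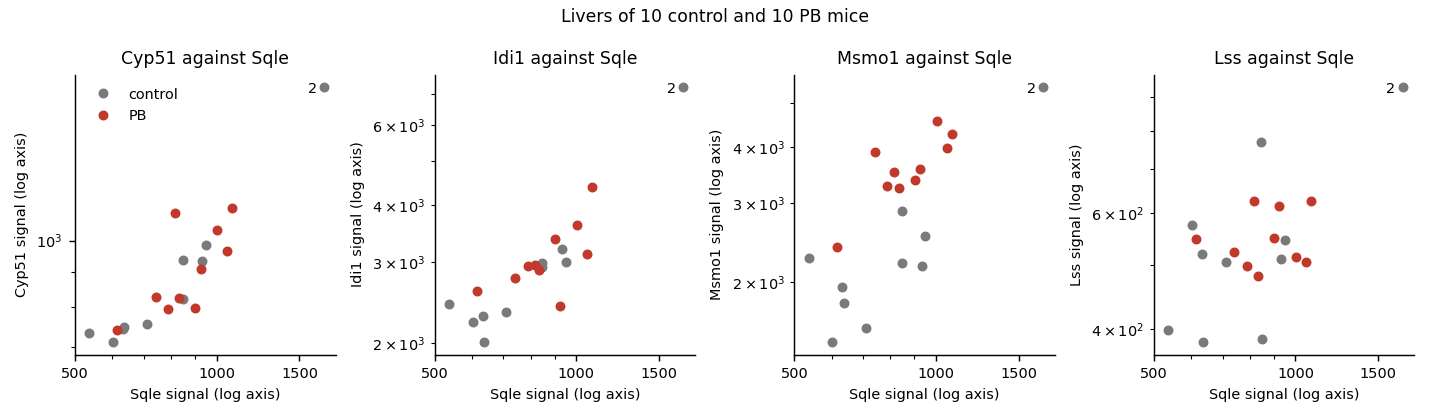
Signal of Cyp51, Idi1, Msmo1 and Lss against that of Sqle in the 10 control and 10 PB-treated livers (log axes), with control animal 2 marked. Cyp51 and Idi1 rise with Sqle among the controls with r of 0.96 and 0.94, and control animal 2 lies at the upper right of all 4 panels.

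Aacs was among the genes with no positive correlation to Sqle in control livers, with r = -0.13 (Tm7sf2 had -0.16). Its liver signal was near 400 in 4 animals, namely control animals 1 (393.5) and 6 (400.5) and treated animals 15 (398.7) and 19 (396.5), whereas the other 16 livers lay between 48.0 and 234. A second Aacs probe set was also highest in control livers 6 (506) and 1 (443) and in treated liver 19 (411), while treated liver 15 at 270.3 was below treated liver 11 at 300.1. The difference between treated and control livers was 0.33 on the log2 scale with a wide interval of -0.42 to 1.07.

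Other genes that handle sterols were counted from lists outside the 30, beside 5.88% of all probe sets called higher and 6.43% lower in liver, and 1.79% and 1.47% in kidney. Of 11 measured genes of sterol sensing and turnover, 2 fell in liver and none rose: Erlin1, which takes part in degrading the sterol synthesis machinery, at -0.32 (860.0 to 1254 in controls, 634 to 932 in treated livers) and the nuclear receptor partner Rxra at -0.25 (limma adjusted p of 0.00401 and 0.0288). In kidney Srebf1, the SREBP that drives fatty acid synthesis, rose by 0.48, from 152 to 242 in controls to 179 to 322 in treated mice. Of 15 other carriers and exit routes tested in liver, Abcg5, part of the transporter that secretes sterols into bile, rose by 0.44 with 331.5 to 652 in controls and 529.8 to 835 in treated livers (limma adjusted p = 0.00475). Osbpl2 rose and Lrp1 fell in liver, at 0.18 and -0.26 (Osbpl2 was named after its value was seen), and in kidney Stard5 rose by 0.25. In the acetyl-CoA and isoprenoid branch, 1 of 10 genes fell in liver, Acat1 at -0.27, and 1 of 10 rose in kidney, Acly, which supplies cytosolic acetyl-CoA, by 0.38. Fat markers rose in the same kidneys, and their part in the kidney values of Srebf1, Stard5 and Acly was not tested. The median differences of these 3 lists in liver were -0.13 for sensing, 0.08 for carriers and -0.06 for the acetyl-CoA branch, against -0.01 for all probe sets.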

How the data were processed

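RNA of liver and kidney from 20 mice was measured on 40 Affymetrix Mouse430_2 arrays, 10 animals per group and no pooling. The authors deposited MAS5 intensity values on a linear scale, which their methods scale to a trimmed mean of 150 per array, and GCOS and MAS5 are named in the submitters' processing notes without versions. Neither scanner files nor detection calls entered the analysis. The number of arrays limits the precision.

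Gene names for the 45037 probe sets came from the platform annotation, updated by Entrez identifier with a RefSeq table of GRCm38.p6 (34945 with 1 symbol, 932 with several, 9160 with none, 34741 matched to the table), and probe sets with several symbols or none were left unnamed. All 30 genes were to be named, and of the other lists up to 2 genes per list and comparison with the largest differences among those called. Marker lists covered hepatocytes, kidney, adrenal gland, fat, macrophages, stellate cells and pancreas. Members and lists were chosen with earlier results of these data known.

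A probe set entered a comparison when its group mean reached 50 on either side, as in the study's methods. Signals below 1 were raised to 1, and log2 values were compared with limma 3.58.1 (lmFit, and eBayes with a trend) in R 4.3.3, two-sided, with Benjamini-Hochberg adjustment over all probe sets tested and a threshold of 0.05. Liver and kidney were each fitted with their own arrays, and the difference of the PB effect over all 40. Correlations used 100000 permutations, two-sided. The scripts were checked on simulated data. Python 3.11.15, NumPy 2.4.6, pandas 2.3.3, SciPy 1.17.1 and matplotlib 3.10.9 were used. Both tissues came from the same animals by the donor number in the labels: deviations from the group mean correlated between the tissues of an animal with a median r of 0.0447 (-0.0347 to 0.0941) over 21188 probe sets, and a fit of the tissue comparisons with animal as a block was an alternative. The kidney of the same animal was the best match within its treatment group for 10 of 20 livers. Every r under 0 was in a treated animal, the lowest in animal 13, so the pairing of treated mice rests mainly on the labels. Alternatives were other filters, floors, offsets, scalings, tests and covariates, other probe sets, and each array left out in turn.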

Additional observations from a re-analysis of the deposited data

Results flagged for a closer look

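Some values lay far from the other 9 animals of their group, by the gap to the nearest value as a share of the group's range (log2 signal). This was the case in 11 of 106 combinations of gene and group (10.4%), where chance gives about 5% if the combinations are independent. They were not, because some genes varied together between animals, and several of the 11 are the same liver, that of control animal 2. Whether the share exceeds chance was not tested. In control livers animal 2 was far above the rest for Idi1 (gap of 0.635 of the range), Cyp51 (0.622), Sqle (0.502), Dhcr7 (0.497) and Msmo1 (0.487). In treated livers Msmo1 was low in animal 15 (0.470) and Scarb1 was low in animal 20 (0.531). In treated kidneys Pmvk was high in animal 16 (0.663), Insig1 was low in animal 14 (0.491) and Insig2 was low in animal 15 (0.489). In control kidneys Scarb1 was low in animal 3 (0.517).

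The PB effect in liver differed from that in kidney, by an interaction term in limma, for Msmo1 (0.71 on the log2 scale), Ebp (-0.31), Scarb1 (-0.48) and Abca1 (-0.63).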

How the results depend on the processing

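In liver the 8 calls became 1 by the methods' t-test at the study's thresholds, and leaving out each array gave 7 to 10. Fdft1 in liver was lost without a filter, with quantile normalization, with median scaling, with eBayes without a trend and with the methods' t-test adjusted. In kidney the 3 calls became 5 with a filter at 100 or with 1 probe set per gene, 1 with eBayes without a trend or with the methods' t-test adjusted, and 0 without a filter, with all 40 arrays in 1 fit or at the study's thresholds, while leaving out each array gave 1 to 3 (1 without control kidneys 1, 3, 4, 7 or 8 or treated kidneys 16, 17 or 20). Leaving out each array gave 3 to 5 calls for the difference between tissues in the PB effect, 26 for the tissues in control mice and 24 to 27 in treated mice. Of the relations with Sqle, Spearman's rho passed 1 in control livers, 0 in treated livers, 1 in control kidneys and 0 in treated kidneys, and with 8 animals 0 passed in each. Signs turned for small differences: in kidney, Pmvk to 0.0043 with arrays scaled to the median and Scap to -0.00049 with the array number as covariate, and for the difference between tissues Mvk to 0.46 (adjusted p = 0.0225) with signals under 50 set to 50 and to 0.092 with an offset of 16, Fdps to -0.032 with quantile normalization and -0.047 with median scaling, and Dhcr7 to -0.0050 and Npc1 to -0.010 with median scaling. Srebf2 between tissues in control mice turned to -0.067 with median scaling. Mvk was lost in liver with all 40 arrays in 1 fit, where its difference was still 0.54 (adjusted p = 0.15), and Idi1 in kidney was lost with median scaling, without a filter and with all 40 arrays. Hmgcs1 between tissues in treated mice passed with an offset of 16 (-0.15), median scaling (-0.28) and quantile normalization (-0.65). The cause of these changes was not tested. With the animal as a replicate block, Mvd was lost in treated mice (difference -0.25, adjusted p = 0.0503) and Srebf2 was gained (0.22, adjusted p = 0.0244), and the block changed no other call. Median scaling moved the median of all probe sets between tissues in treated mice from -0.11 to -0.25, and no filter moved it to 0.19. Over all settings and single genes, 2831 values kept direction and side of the threshold, 95 lost the call, 18 gained it and 9 turned.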

Other observations

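Aacs was the highest in the same control animals in both tissues: control animals 6 and 1 had the highest signals in liver (400.5 and 393.5) and in kidney (1014 and 887.6). Treated animals 15 and 19, the highest in liver, had 560.3 and 501 in kidney, where the treated range was 501 to 862. The animals were picked after their values had been seen, and no test was run.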
